A study of Rattus norvegicus with 294 samples.

Results

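Collagens III, V and XI are the minor fibrillar collagens of bone, and 5 of their chains were followed in vertebral bone cells of ovariectomized rats given an antibody against sclerostin: Col3a1, Col5a1, Col5a2, Col11a1 and Col11a2. A gene was taken as measured where the array carried a probe set annotated to it alone, and of several such probe sets the one with the highest mean log2 intensity over all arrays was used. All 5 genes had one, with 9 probe sets among them, out of 14217 genes and 20826 probe sets with a single gene. The choice used annotation and signal level, not any response to treatment.

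Fibrillar collagens are secreted as procollagen trimers whose propeptides are cut off outside the cell before the trimers pack into fibrils. Type I collagen makes up most of the fibre mass of bone, while type V and type XI trimers are buried within type I and type II fibrils, help to start them and limit their width. Type III collagen forms thin fibrils with type I in extensible tissues and in early repair, and it is scarce in mature mineralised bone.

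The animals were female Sprague-Dawley rats, ovariectomized at 6 months of age and then left for 8 weeks, so every group, vehicle included, lacked ovaries. Weekly subcutaneous injections of 3 mg/kg antibody, 50 mg/kg antibody or vehicle ran to day 183, with tissue taken on days 8, 29, 85 and 183. Groups kept without dosing afterwards were taken on days 197 and 267 (3 mg/kg, with vehicle) and on days 237 and 309 (50 mg/kg, with vehicle). The antibody had been altered to provoke less of an immune reaction in rats. Sections of the third lumbar vertebra were laser captured to enrich for 1 of 3 cell types, which gave 97 arrays of osteoblasts, 100 of lining cells and 97 of osteocytes, with calcein given before death to mark forming surfaces. The arrays fall into 60 groups of cell type, treatment and day, of which 88 arrays were of 3 mg/kg rats, 86 of 50 mg/kg rats and 120 of vehicle rats. Most groups held 5 arrays. Those of 4 were 3 mg/kg osteoblasts of day 8, 50 mg/kg osteoblasts of days 85 and 237, and 3 mg/kg osteocytes of day 29, and 50 mg/kg osteocytes of day 85 had 3. Captured material is a mixture, and fewer cells of a type and less RNA per cell cannot be told apart in it.

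By its median, the sum of osteocyte markers set the osteocyte captures apart from the others. The sum of osteoblast markers did not set the osteoblast captures apart from the osteocyte ones. In vehicle arrays the summed intensity of 6 osteocyte markers (Sost, Dmp1, Mepe, Phex, Fgf23, Pdpn) had a median of 4355 in osteocytes, 244 in osteoblasts and 143 in lining cells. Its ranges were 940 to 8623, 104 to 1302 and 66.4 to 682 in that order, so osteocytes and osteoblasts overlapped. The sum of 5 osteoblast markers (Alpl, Bglap, Ibsp, Col1a1 and Col1a2, of which the last pair are collagen genes themselves) had a median of 9874 in osteocytes, 7228 in osteoblasts and 2082 in lining cells. Erythroid markers had a median sum of 8358, 17727 and 13604, and granulocyte markers of 5844, 12664 and 9756, in osteocytes, osteoblasts and lining cells in that order. Chondrocyte markers, which matter here because cartilage uses type XI collagen, summed over 10 probe sets to a median of 103, 117 and 92.1, low on the intensity scale. Single arrays reached 452 in osteocytes, 168 in osteoblasts and 121 in lining cells. All these sums are on the deposited values, where genes were higher by a median of 0.64 log2 units in osteoblasts than in osteocytes. That shift was 0.41 for osteoblasts minus lining cells and 0.26 for lining cells minus osteocytes. In 3 arrays the signal range (the 90th minus the 50th percentile of log2 intensity) stood apart from the rest of the group: vehicle osteoblasts of day 85 (replicate 4), 50 mg/kg lining cells of day 8 (replicate 3) and 3 mg/kg osteocytes of day 29 (replicate 2). The labels number no replicates, so replicate numbers here follow accession order within a group and only name an array.

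The promoters of the type V and type XI chains are printed because these 4 genes varied together over the arrays, as described further on. Each sequence runs 5′ to 3′ from 250 bases before to 50 bases after the start site that the RefSeq promoter table uses on build GRCr8, with GGGCGG (the core of a GC box) and CCAAT (the CCAAT box) in capitals where either strand holds them. A CCAAT on the opposite strand reads ATTGG. For Col5a1 and Col11a2 that start site lies inside the outer bounds of the gene given further on, so both windows fall wholly within those bounds, and positions count from the start site of the table.
Col5a1, chr3:31606630-31606929, plus strand: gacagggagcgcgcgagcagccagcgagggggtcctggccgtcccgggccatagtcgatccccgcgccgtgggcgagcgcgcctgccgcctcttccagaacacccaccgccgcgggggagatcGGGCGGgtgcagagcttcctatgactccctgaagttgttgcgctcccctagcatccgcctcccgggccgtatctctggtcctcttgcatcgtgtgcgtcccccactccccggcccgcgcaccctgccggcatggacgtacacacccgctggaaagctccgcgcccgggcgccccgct
Col5a2, chr9:55090102-55090401, minus strand: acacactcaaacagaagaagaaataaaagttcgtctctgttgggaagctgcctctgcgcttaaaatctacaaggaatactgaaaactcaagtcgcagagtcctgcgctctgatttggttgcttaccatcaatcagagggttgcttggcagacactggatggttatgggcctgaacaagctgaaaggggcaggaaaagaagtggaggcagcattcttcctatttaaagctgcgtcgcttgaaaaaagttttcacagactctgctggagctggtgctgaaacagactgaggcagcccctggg
Col11a1, chr2:204508886-204509185, plus strand: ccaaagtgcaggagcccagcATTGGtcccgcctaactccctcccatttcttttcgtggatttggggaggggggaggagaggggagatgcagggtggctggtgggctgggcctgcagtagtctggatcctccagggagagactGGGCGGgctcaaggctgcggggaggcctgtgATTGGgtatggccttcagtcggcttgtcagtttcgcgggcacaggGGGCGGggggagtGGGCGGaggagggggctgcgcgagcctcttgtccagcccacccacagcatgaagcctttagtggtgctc
Col11a2, chr20:4817599-4817898, minus strand: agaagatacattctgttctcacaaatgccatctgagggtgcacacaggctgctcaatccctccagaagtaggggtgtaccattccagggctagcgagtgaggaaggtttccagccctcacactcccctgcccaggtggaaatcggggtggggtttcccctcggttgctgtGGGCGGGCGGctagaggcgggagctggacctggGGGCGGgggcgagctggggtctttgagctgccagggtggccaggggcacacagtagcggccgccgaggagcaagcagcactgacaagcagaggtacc
The GC content of these windows was 72% for Col5a1, 47.7% for Col5a2, 64.7% for Col11a1 and 62.7% for Col11a2, against a median of 51.7% over the 33469 promoters of the table. GGGCGG, which 33.1% of those promoters hold on one strand or the other, was found once in Col5a1 (at -127), at 3 places in Col11a1 (-108, -32 and -19) and at 3 in Col11a2 (-80, -76 and -47, of which the first and second overlap). CCAAT, held by 37.5% of promoters, was found in Col11a1 alone, on the opposite strand at -230 and -77. None of the 4 windows holds TATAAA (14.2% of promoters), the TCF/LEF motifs CTTTGAT (3.63%) and CTTTGAA (5.4%), or the RUNX motif TGTGGT (17.3%) on either strand. Col5a2 holds none of these motifs. Col3a1 was not among the promoters matched by symbol.

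By position on GRCr8, Col3a1 (chr9:54866646-54902578) and Col5a2 (chr9:54940768-55090151) are neighbours on chromosome 9. Col5a1 lies at chr3:31606475-31755097, Col11a1 at chr2:204509136-204702264 and Col11a2 at chr20:4788829-4818492. The probe sets used were 1370959_at for Col3a1, 1376099_at for Col5a1, 1370895_at for Col5a2, 1392915_at for Col11a1 and 1389891_at for Col11a2. The other probe set of Col5a1 correlated with the one used at r = 0.85 over all arrays, and that of Col5a2 at r = 0.90. For Col11a1 the 2 others sat at mean log2 intensities of 2.43 and 2.16 and correlated with the one used at only 0.15 and 0.40, so the Col11a1 results rest on a single probe set. Col3a1 and Col11a2 had no other probe set, so their results do too. Over both doses on the dosing days the 2 low Col11a1 probe sets changed by -0.23 to 0.26. A mean over all Col11a1 probe sets, used as an alternative below, therefore dilutes a change of this gene. All 5 genes passed the filter on low signal in every fit. Col5a1 and Col5a2 were above the array's median intensity on all arrays, and Col11a2 on 97 of 97 osteocyte, 97 of 97 osteoblast and 86 of 100 lining cell arrays. For Col11a1 these counts were 97 of 97, 88 of 97 and 84 of 100, and for Col3a1 97 of 97, 90 of 97 and 86 of 100. On the deposited vehicle arrays Col3a1 averaged 4.09 in osteocytes, 4.23 in osteoblasts and 3.61 in lining cells (log2). In vehicle lining cells Col11a1 averaged 3.79 and Col11a2 3.56. These levels are low on the intensity scale, which limits how far folds from them can be read.

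Without antibody, the 5 chains had their highest mean in osteocyte captures and their lowest in lining cells, except that on the values as deposited the Col3a1 mean was highest in osteoblasts. The 3 cell types appear to have been normalized separately before deposit, so these levels come from arrays quantile normalized together, with 40 vehicle arrays per cell type over the 8 days. Col5a1, the α1 chain of most type V trimers, averaged 7.55 ± 0.70 in osteoblasts, 6.65 ± 0.59 in lining cells and 8.89 ± 0.71 in osteocytes (log2 intensity, SD, n = 40 each). Col5a2, the α2(V) chain, averaged 7.59 ± 1.09, 6.28 ± 0.57 and 8.92 ± 0.67 in the same order. The ranges overlap: Col5a2 ran between 4.95 and 9.88 in osteoblasts, 4.93 and 7.43 in lining cells, and 7.47 and 10.14 in osteocytes.

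The type XI chains were ordered in the same way. Col11a1, the α1(XI) chain, averaged 4.80 ± 1.12 in osteoblasts, 3.85 ± 0.58 in lining cells and 5.84 ± 0.82 in osteocytes. Col11a2, the α2(XI) chain, averaged 5.63 ± 0.52, 3.61 ± 0.31 and 6.76 ± 0.66. Its lining cell arrays reached at most 4.41, below every osteocyte array (5.00 and above). Col3a1, the single chain of type III collagen, differed least, at 3.83 ± 0.50, 3.64 ± 0.44 and 4.44 ± 0.49.

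Of the 15 differences between cell types, 14 passed limma at an adjusted p under 0.05, which is the meaning of "passed" from here on, and all 15 had an unadjusted p under 0.05. The same test called 33.5% of all genes between osteoblasts and lining cells, 63.8% between osteoblasts and osteocytes and 58.5% between lining cells and osteocytes, so such calls were common. Osteoblasts exceeded lining cells by 2.03 log2 units for Col11a2 (SE 0.11, adjusted p = 1.15e-33), 1.31 for Col5a2, 0.95 for Col11a1 and 0.90 for Col5a1. For Col3a1 the difference was 0.19 (SE 0.10, adjusted p = 0.113), the one that did not pass. Relative to osteocytes, osteoblasts were lower by between -0.60 (Col3a1) and -1.33 (Col5a1 and Col5a2), and lining cells by between -0.80 (Col3a1) and -3.16 (Col11a2, SE 0.11, adjusted p = 1.49e-53). On the values as deposited, Col3a1 was 0.14 higher in osteoblasts than in osteocytes (adjusted p = 0.173) and Col11a1 0.25 lower (difference -0.25, adjusted p = 0.08), and neither passed. Part of each deposited difference is a shift of all genes, and relative to that shift the 2 were at -0.50 and -0.89. Marker sums are on the deposited values and carry that shift. The sums of osteoblast, erythroid and granulocyte markers given above moved with the cell types too. So did osteoclast markers, with a median sum of 4742 in osteoblasts, 6457 in lining cells and 9770 in osteocytes, and endothelial markers, at 352, 246 and 70.8. After joint quantile normalization, 5 of 8 tendon, periosteum and fibroblast markers were lower in osteoblasts than in osteocytes. In lining cells 5 were lower than in osteocytes, and Fap, Scx and Pdgfra were among both. The called chondrocyte markers of largest change, Col2a1, Col10a1 and Acan, were also lower than in osteocytes. They were at -1.54, -0.87 and -0.59 in osteoblasts, and at -1.62, -0.88 and -0.61 in lining cells. The part of these markers in the levels was not tested.

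**Figure D1:**
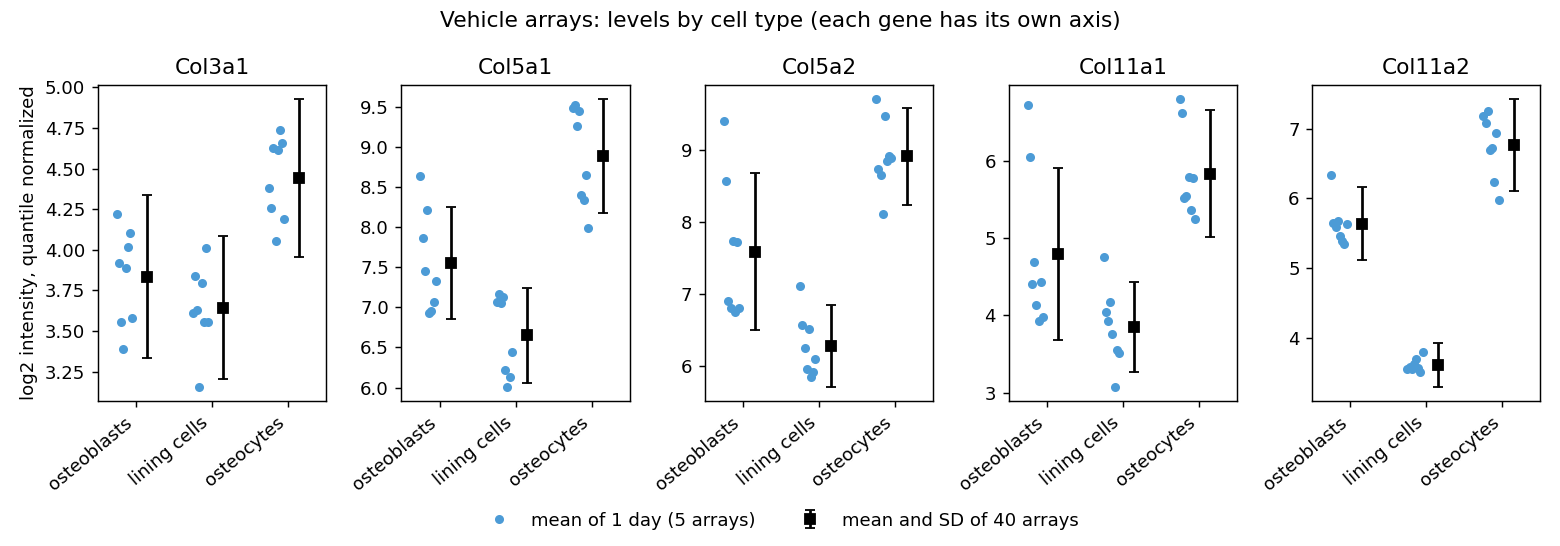
Levels of the 5 collagen chains in vehicle rats, as log2 intensity after joint quantile normalization, by cell type. Each small point is the mean of the 5 arrays of a day, and the large symbol with its bar is the mean ± SD of 40 arrays. For each chain the mean is highest in osteocytes and lowest in lining cells on this scale (on the deposited values Col3a1 has its highest mean in osteoblasts), with the widest step for Col11a2.

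The vehicle level was not steady over the months of the study. In vehicle osteoblasts, Col5a2 read 6.19, 6.20, 7.28, 7.84 and 8.19 on day 85, against 8.94, 9.69, 9.79, 10.07 and 10.17 on day 8. Col11a1 read 3.05, 4.57, 5.25, 5.32 and 5.60 on day 85, against 6.87, 7.15, 7.16, 7.62 and 7.66 on day 8. In both genes every day 85 array was below every day 8 array. All 5 chains fell by day 85 in vehicle osteoblasts, where limma called 25.9% of all genes lower; on day 29 none had passed (2 at an unadjusted p under 0.05, with 0.648% of genes called lower). The differences were -2.59 for Col5a2 (SE 0.39, adjusted p = 5.88e-07), -2.53 for Col11a1, -1.38 for Col5a1, -1.01 for Col11a2 and -0.80 for Col3a1 (adjusted p = 0.036, a call that ended on leaving out any of 5 of the 10 arrays, with differences between -1.01 and -0.56). Vehicle osteocytes showed 2 such falls by day 85, at -1.41 for Col5a2 and -1.62 for Col11a1, with 26.3% of genes called lower, and both ended when the signal range was a covariate. Col5a2 also fell there by day 29 (-1.14, SE 0.32, adjusted p = 0.0441, 1.69% of genes called lower), a call that 8 of the 10 arrays could end (differences of -1.28 to -0.96). In vehicle lining cells 0 of 10 passed limma, which called 0% of genes lower on day 29 and 2.85% on day 85 (2 of the 10 were at an unadjusted p under 0.05). Col5a2 on day 85 was nearest there, at -1.0 (adjusted p = 0.053). The osteoblast marker sum moved with the day as well, at 1701 to 8514 on day 85, against 16034 to 18360 on day 8 in vehicle osteoblasts, and its part was not tested. Each response below is therefore set against vehicle arrays of the same day.

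During dosing at 50 mg/kg, 25 of the 60 combinations of chain, cell type and day passed, all higher than vehicle, and 35 had an unadjusted p under 0.05. The difference was above 0 in 54 of the 60, with a median of 0.82 and a range of -0.43 to 2.82 on the log2 scale. Osteoblasts held 9 of the 25, lining cells 6 and osteocytes 10. By chain, Col11a1 passed in 10 of its 12 combinations, Col11a2 in 5, Col5a1 in 4, and Col5a2 and Col3a1 in 3 each. As background, the share of all genes called higher at 50 mg/kg on days 8, 29, 85 and 183 was 5.21, 7.76, 3.38 and 3.28% in osteoblasts, 0.172, 0.198, 0.362 and 0.81% in lining cells, and 0.312, 3.24, 6.64 and 4.93% in osteocytes.

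**Figure D2:**
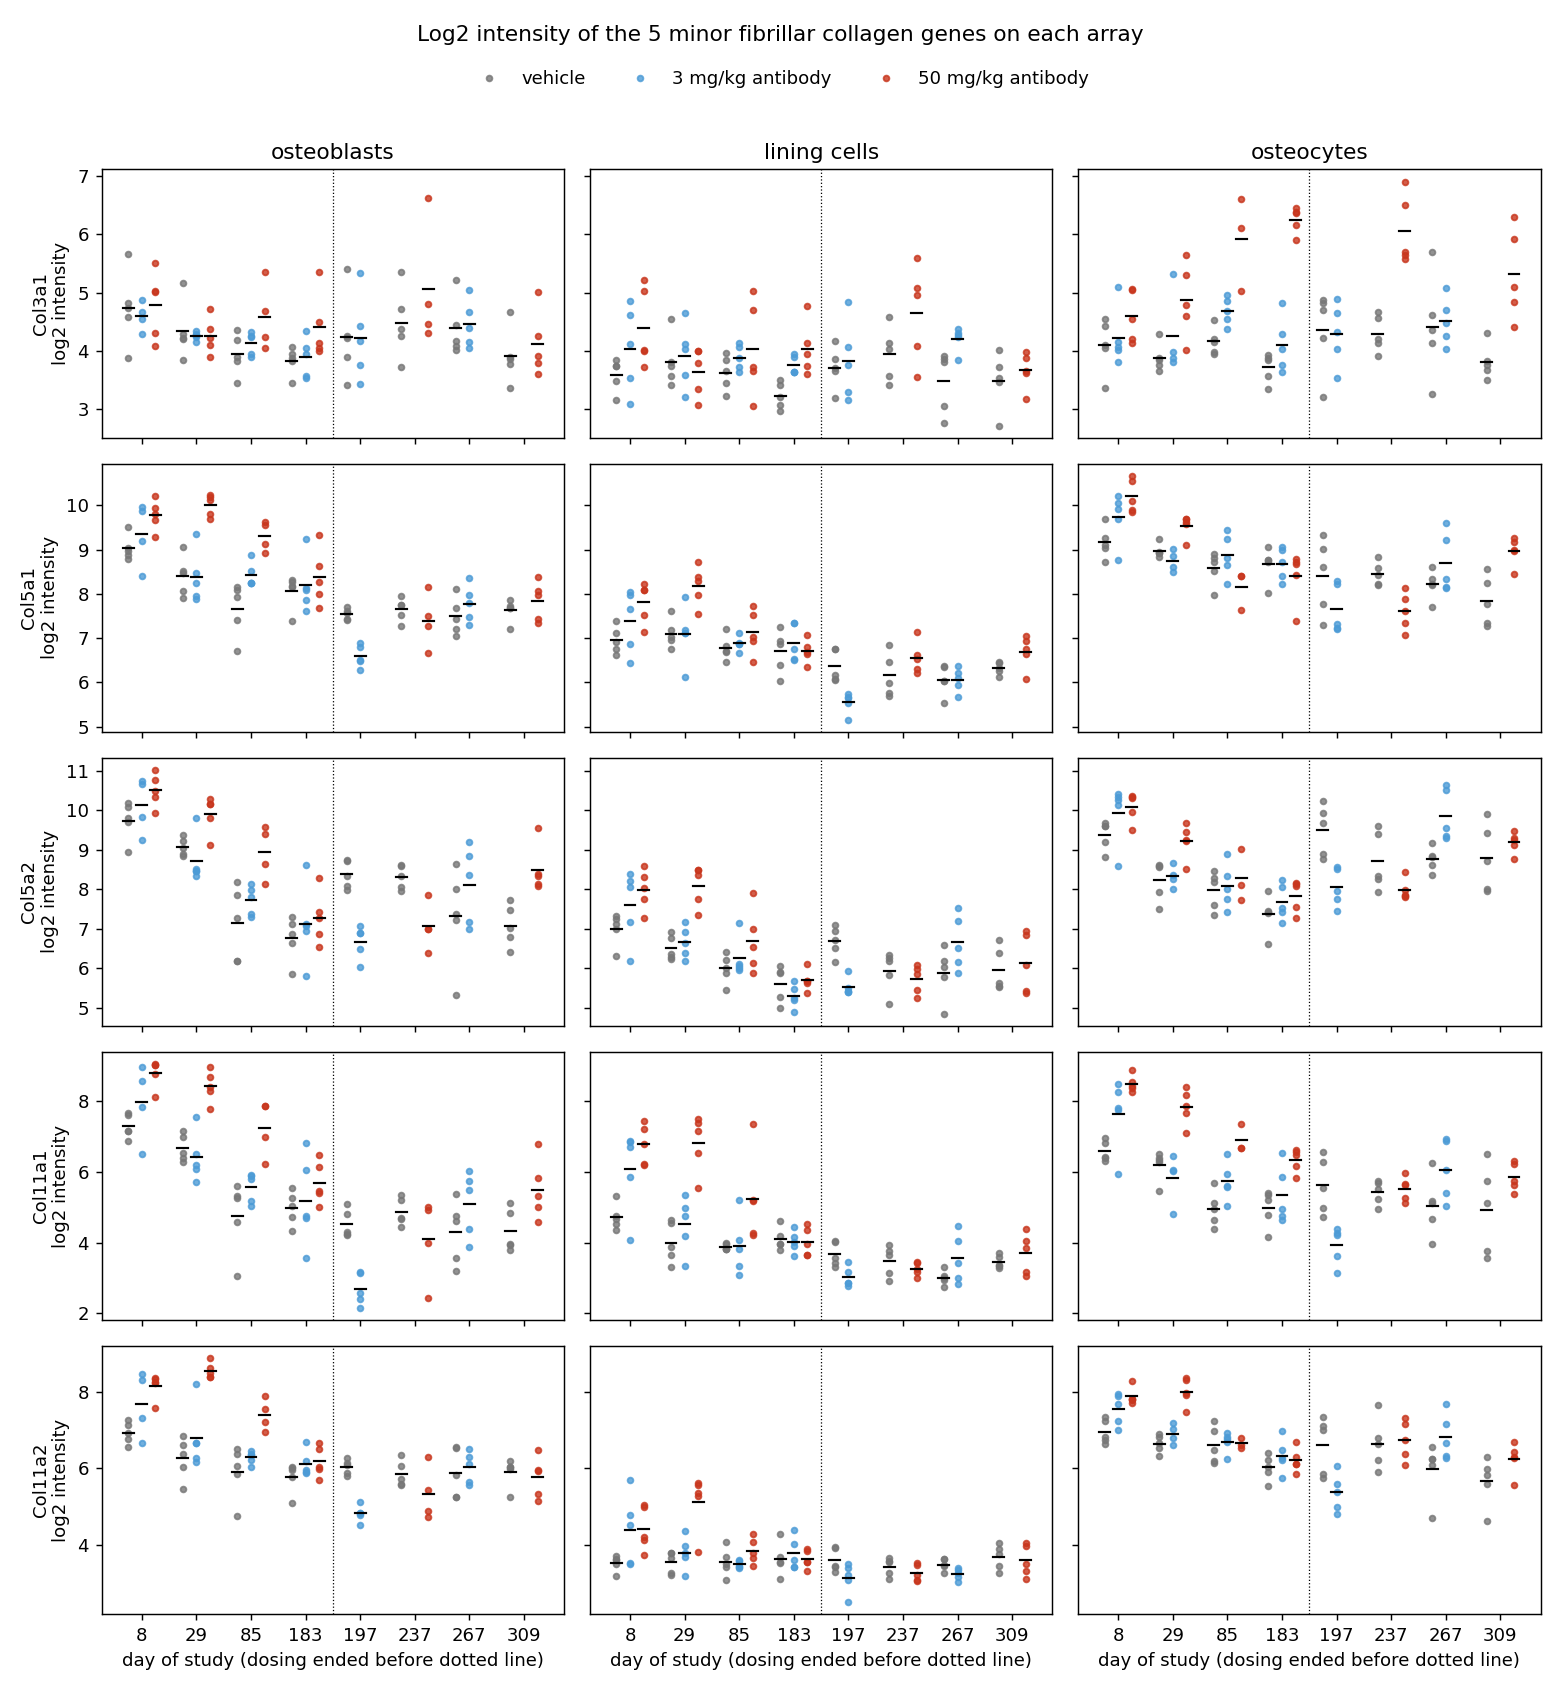
The log2 intensity of each collagen chain (rows) in each cell type (columns) by day, 1 point per array. Vehicle, 3 mg/kg and 50 mg/kg stand left to right within a day, a black bar marks the group mean and the dotted line the end of dosing. Col11a1 at 50 mg/kg lies above its vehicle arrays in all 3 cell types early on, while Col3a1 stands out in osteocytes from day 85 onward.

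Col11a1 was the most widely changed chain. In osteoblasts on day 8 it read 8.11, 8.78, 9.02, 9.03 and 9.05 at 50 mg/kg, against 6.87, 7.15, 7.16, 7.62 and 7.66 with vehicle. In lining cells of that day it read 6.20, 6.24, 6.80, 7.20 and 7.45 at 50 mg/kg, against 4.37, 4.54, 4.67, 4.75 and 5.31 with vehicle. In osteocytes it read 8.26, 8.38, 8.43, 8.54 and 8.88 at 50 mg/kg, against 6.30, 6.39, 6.43, 6.83 and 6.95 with vehicle. In each cell type all treated arrays lay above all vehicle arrays 8 days into dosing. The differences were 1.50 in osteoblasts (SE 0.43, 2.84-fold, adjusted p = 0.0178), 2.05 in lining cells (SE 0.37, 4.14-fold, adjusted p = 0.00107) and 1.92 in osteocytes (SE 0.39, 3.78-fold, adjusted p = 0.00259).

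On day 29 the separation of Col11a1 held in each cell type, and lining cells had the highest difference of any chain. Their arrays read 5.55, 6.52, 7.16, 7.38 and 7.49 at 50 mg/kg, against 3.30, 3.65, 3.86, 4.54 and 4.63 with vehicle, a difference of 2.82 (SE 0.37, 7.09-fold, adjusted p = 2.41e-07). Osteoblasts read 7.77, 8.28, 8.40, 8.69 and 8.97, against 6.29, 6.40, 6.54, 6.99 and 7.17 with vehicle, and rose by 1.75 (SE 0.43, adjusted p = 0.00167). Osteocytes read 7.09, 7.68, 7.86, 8.16 and 8.41, against 5.45, 6.27, 6.35, 6.39 and 6.50 with vehicle, and rose by 1.65 (SE 0.39, adjusted p = 0.00294). Again no treated array overlapped a vehicle array.

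By day 85 the lining cell response of Col11a1 rested on few arrays. Those lining cells read 4.21, 4.27, 5.17, 5.20 and 7.35 at 50 mg/kg, against 3.81, 3.82, 3.83, 3.97 and 4.00 with vehicle, a difference of 1.35 (SE 0.37, adjusted p = 0.0454). The single array at 7.35 (replicate 3) carried much of it: without it the difference was 0.83, with the mean of the 3 Col11a1 probe sets it was 0.46 (adjusted p = 0.0953), and leaving out any of 8 of the 10 arrays ended the call (adjusted p up to 0.294). Osteoblasts of day 85 read 6.23, 7.0, 7.86 and 7.87 at 50 mg/kg, against 3.05, 4.57, 5.25, 5.32 and 5.60 with vehicle, and rose by 2.48 (SE 0.46, 5.58-fold, adjusted p = 0.000316). Osteocytes read 6.67, 6.67 and 7.36, against 4.39, 4.63, 4.96, 5.13 and 5.69, and rose by 1.94 (SE 0.45, adjusted p = 0.00176), which array weights ended (adjusted p = 0.147). In each cell type the treated arrays again lay wholly above vehicle, most closely in lining cells (4.21 at the lowest, against 4.00 at the highest with vehicle).

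At the end of dosing, on day 183, Col11a1 passed only in osteocytes among the 3 cell types. These read 5.82, 6.17, 6.47, 6.57 and 6.61 at 50 mg/kg, against 4.16, 4.79, 5.21, 5.34 and 5.40 with vehicle, a difference of 1.35 (SE 0.39, adjusted p = 0.0198). Leaving out vehicle replicate 2 or 3 or 50 mg/kg replicate 5 ended that call (adjusted p up to 0.0983, differences of 1.15 to 1.48). Osteoblasts read 5.00, 5.40, 5.47, 6.14 and 6.49 at 50 mg/kg, against 4.33, 4.73, 5.04, 5.25 and 5.54 with vehicle, and overlapped.

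Col11a2, the partner chain of type XI, passed in osteoblasts on 3 days and once in each of the other cell types. Osteoblasts of day 29 read 8.40, 8.40, 8.49, 8.63 and 8.88 at 50 mg/kg, against 5.46, 6.05, 6.38, 6.61 and 6.85 with vehicle. The lowest treated array was more than a log2 unit above the highest vehicle array, and the difference was 2.29 (SE 0.29, 4.90-fold, adjusted p = 6.42e-08). On day 8 the arrays read 7.58, 8.23, 8.25, 8.34 and 8.36, against 6.55, 6.76, 6.92, 7.12 and 7.27, a difference of 1.23 (SE 0.29, adjusted p = 0.00334). On day 85 they read 6.95, 7.21, 7.55 and 7.89, against 4.76, 5.85, 6.06, 6.38 and 6.52, a difference of 1.49 (SE 0.31, adjusted p = 0.0011). In neither day did the groups overlap.

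In lining cells of day 29 Col11a2 read 3.81, 5.28, 5.36, 5.56 and 5.61 at 50 mg/kg, against 3.2, 3.27, 3.67, 3.79 and 3.79 with vehicle. One treated array stood just above the highest vehicle arrays and the other 4 well above them, and the difference was 1.58 (SE 0.25, 2.99-fold, adjusted p = 4.67e-05). Osteocytes of day 29 read 7.48, 7.92, 7.98, 8.30 and 8.37, against 6.34, 6.53, 6.67, 6.82 and 6.89 with vehicle, a difference of 1.36 (SE 0.29, adjusted p = 0.000691) with no overlap. On day 8 the gene missed the threshold in lining cells (0.89, adjusted p = 0.0656) and in osteocytes (0.93, adjusted p = 0.0923).

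Col5a1 passed most firmly in osteoblasts. It read 9.68, 9.80, 10.13, 10.20 and 10.23 at 50 mg/kg on day 29, against 7.92, 8.06, 8.48, 8.52 and 9.06 with vehicle, and rose by 1.60 (SE 0.27, 3.03-fold, adjusted p = 1.2e-05). On day 85 it read 8.93, 9.12, 9.56 and 9.64, against 6.72, 7.42, 7.92, 8.09 and 8.14, and rose by 1.65 (SE 0.28, 3.14-fold, adjusted p = 8.01e-05). No treated array reached down to the vehicle arrays on either day. The other Col5a1 probe set, over both doses together, gave 1.30 on day 29 (adjusted p = 0.0012) and 0.99 on day 85 (adjusted p = 0.0455) in osteoblasts, and also passed on day 8 (0.98, adjusted p = 0.0332).

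Elsewhere Col5a1 was less stable. Lining cells of day 29 read 7.55, 7.98, 8.30, 8.39 and 8.72 at 50 mg/kg, against 6.75, 6.95, 7.02, 7.18 and 7.62 with vehicle, a difference of 1.09 (SE 0.25, adjusted p = 0.0179) in which the lowest treated array lay under the highest vehicle array. Osteocytes of day 8 read 9.85, 9.89, 10.11, 10.55 and 10.67, against 8.72, 9.04, 9.09, 9.26 and 9.69, a difference of 1.05 (SE 0.28, adjusted p = 0.0415) with no overlap. Leaving out 1 array ended the lining cell call for 6 of 10 arrays (differences of 0.95 to 1.25, adjusted p up to 0.162) and the osteocyte call for 8 of 10 (0.94 to 1.18, adjusted p up to 0.153). Later in dosing Col5a1 was below vehicle on average in osteocytes, at -0.43 on day 85 (adjusted p = 0.441) and -0.26 on day 183 (adjusted p = 0.699), without passing.

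Col5a2 passed once in each cell type, and missed the threshold in osteoblasts of day 29 (0.83, adjusted p = 0.102), where 4 alternatives passed it (adjusted p of 0.0056 to 0.0306). In osteoblasts of day 85 it read 8.13, 8.63, 9.38 and 9.58 at 50 mg/kg, against 6.19, 6.20, 7.28, 7.84 and 8.19 with vehicle, and rose by 1.79 (SE 0.42, 3.47-fold, adjusted p = 0.00451). In lining cells of day 29 it read 7.36, 7.75, 8.36, 8.48 and 8.50, against 6.24, 6.29, 6.37, 6.76 and 6.93, and rose by 1.57 (SE 0.32, 2.97-fold, adjusted p = 0.00403). The lowest treated osteoblast array lay just under the highest vehicle one, while the lining cell groups did not overlap. In osteocytes of day 29 it read 8.50, 9.22, 9.25, 9.45 and 9.67, against 7.49, 7.94, 8.56, 8.58 and 8.61, a difference of 0.98 (SE 0.32, adjusted p = 0.0464) in which 1 treated array lay within the vehicle range. That last call ended with no filter on low signal, with array weights and on leaving out any of 7 of the 10 arrays (differences of 0.80 to 1.16).

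Col3a1 took another course and passed in osteocytes alone among the cell types. On day 85 those arrays read 5.03, 6.10 and 6.61 at 50 mg/kg, against 3.95, 3.99, 4.16, 4.21 and 4.52 with vehicle. On day 183 they read 5.91, 6.16, 6.36, 6.38 and 6.44, against 3.35, 3.57, 3.84, 3.88 and 3.94. On both days every treated array was above every vehicle array, by almost 2 log2 units on day 183. The differences were 1.75 on day 85 (SE 0.36, 3.36-fold, adjusted p = 0.000449) and 2.53 on day 183 (SE 0.32, 5.79-fold, adjusted p = 4.76e-09), and no single array ended either call.

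Earlier, Col3a1 in osteocytes of day 29 read 4.02, 4.59, 4.78, 5.30 and 5.63 at 50 mg/kg, against 3.65, 3.75, 3.84, 3.88 and 4.28 with vehicle, and the lowest treated array overlapped vehicle. The difference of 0.98 (SE 0.32, adjusted p = 0.0414) ended with no filter and on leaving out any of 7 of the 10 arrays (differences of 0.79 to 1.19). On day 8 it was 0.50 (adjusted p = 0.543). In osteoblasts Col3a1 was at 0.05 on day 8, -0.08 on day 29 and 0.64 on day 85 (adjusted p = 0.277). In lining cells of day 183 it was at 0.80 with every treated array above every vehicle array (3.60 to 4.76, against 2.96 to 3.49), but did not pass (adjusted p = 0.225). The 3 mg/kg lining cell arrays of that day also lay wholly above vehicle (3.63 to 3.95).

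**Figure D3:**
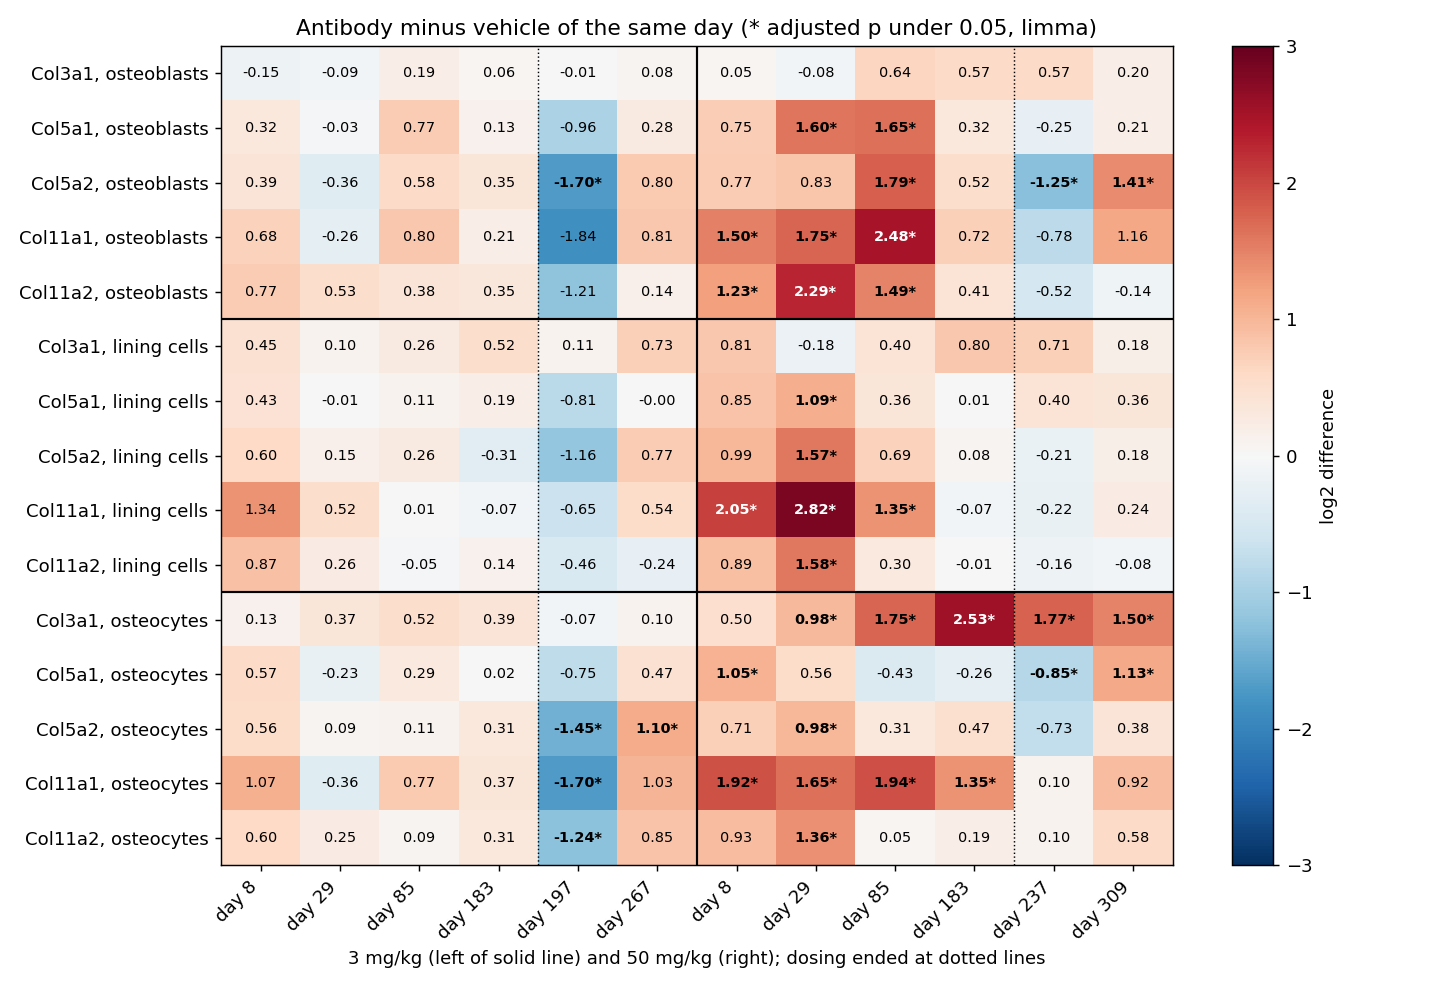
Difference from vehicle of the same day in mean log2 intensity, as a heat map with chain and cell type down the rows and dose and day along the columns. An asterisk marks an adjusted p under 0.05 in limma. The 3 mg/kg columns of the dosing days hold no asterisk, and the Col3a1 row of osteocytes keeps its asterisks at 50 mg/kg from day 29 to day 309.

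Marker sums moved with several of these results, and their part in them was not tested. In osteoblasts of day 8 the 7 erythroid markers summed to 12681 to 18518 at 50 mg/kg, against 9035 to 10472 in vehicle, and 4 of them were called higher over both doses (Car1 at 1.42, Klf1 at 0.80 and Alas2 at 0.74 among them), where 2.52% of all genes were. The 5 osteoblast markers summed to 21502 to 23929 in 50 mg/kg osteoblasts of day 29, against 8826 to 14500 in vehicle, and to 10904 to 16707 on day 85, against 1701 to 8514. In lining cells of day 29 their sum was 5046 to 12517 at 50 mg/kg, against 1938 to 3475 in vehicle. The signal range also differed in osteoblasts of day 29, where it averaged 3.16 log2 units at 50 mg/kg, against 3.53 with vehicle. Where Col3a1 was high in osteocytes, the osteocyte markers were high as well, at a sum of 9555 to 14179 at 50 mg/kg on day 183, against 1418 to 2756 in vehicle, while the osteoblast markers overlapped there (2307 to 8702, against 3743 to 8825). The chondrocyte marker sum did not overlap in those osteocytes, at 117 to 227 at 50 mg/kg, against 93.6 to 111 in vehicle. Type III collagen is also made by fibroblasts and vessel walls, and the sum of 8 tendon, periosteum and fibroblast markers overlapped vehicle in the same osteocytes (135 to 166, against 132 to 153). The sum of 5 endothelial markers did not overlap, at 79.2 to 132 at 50 mg/kg, against 47.6 to 60.6 in vehicle, both low on the intensity scale.

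At 3 mg/kg none of the 60 combinations passed limma in the dosing period, while 7 had an unadjusted p under 0.05 (2 in osteoblasts, 2 in lining cells and 3 in osteocytes). The share of all genes called at that dose was itself small, at 0, 0.0701, 0.0876 and 0.605% in osteoblasts, 0, 0, 0.0345 and 0% in lining cells, and 0.00843, 0, 1.46 and 0% in osteocytes on days 8, 29, 85 and 183. Differences were above 0 in 49 of 60, with a median of 0.28 and a range of -0.36 to 1.34. The highest was Col11a1 in lining cells of day 8 (adjusted p = 0.249), where 4.07, 5.87, 6.70, 6.85 and 6.86 at 3 mg/kg stood against 4.37, 4.54, 4.67, 4.75 and 5.31 with vehicle. In it 4 of the 5 arrays exceeded all vehicle arrays and 1 was the lowest of the 10.

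Averaged over both doses, 6 of 20 combinations passed in osteoblasts (9 at an unadjusted p under 0.05), 3 of 20 in lining cells (11) and 4 of 20 in osteocytes (10), all higher. Genes called higher over both doses on days 8, 29, 85 and 183 made up 2.52, 2.65, 1.26 and 2.27% of all genes in osteoblasts, 0.0603, 0.0345, 0.0431 and 0.0431% in lining cells, and 0.118, 0.202, 4.43 and 1.75% in osteocytes. Col11a1 passed on day 8 in lining cells (1.70, adjusted p = 0.00302, or 0.194 with only the compared groups) and in osteocytes (1.50, adjusted p = 0.0192, ended without vehicle replicate 2, 3 or 4, with differences of 1.39 to 1.71). Col3a1 passed in osteocytes on days 85 (1.13, adjusted p = 0.00782, or 0.207 with array weights) and 183 (1.46, adjusted p = 0.000274).

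The dose difference itself was tested as 50 minus 3 mg/kg. Averaged over the 4 dosing days, Col11a1 was higher at 50 mg/kg in each cell type, by 1.25 in osteoblasts (SE 0.22, adjusted p = 0.000134), 1.09 in lining cells (SE 0.18, adjusted p = 0.000206) and 1.25 in osteocytes (SE 0.21, adjusted p = 3.06e-06). Osteoblasts also had higher Col11a2 (0.85, SE 0.15), Col5a1 (0.78, SE 0.14) and Col5a2 (0.74, SE 0.20, adjusted p = 0.0262) at 50 mg/kg. In lining cells Col5a2 passed too (0.66, SE 0.16, adjusted p = 0.022), and in osteocytes Col3a1 did (1.09, SE 0.17, adjusted p = 5.72e-07). The background shares called higher were 1.4, 0.345 and 6.84% in osteoblasts, lining cells and osteocytes. The 2 Col5a2 calls were close to the threshold: 5 of 38 osteoblast arrays could end the one (adjusted p up to 0.0596), and 3 mg/kg replicate 3 of day 8 the other in lining cells (adjusted p = 0.0507).

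By single day, day 29 separated the doses most often. There Col11a1 was higher at 50 than at 3 mg/kg by 2.0 in osteoblasts, 2.30 in lining cells and 2.01 in osteocytes, and Col11a2 by 1.76, 1.32 and 1.11, all of which passed, while 1.51, 0.069 and 3.09% of all genes were called higher. The osteocyte call of Col11a2 ended without 3 mg/kg replicate 1 (adjusted p = 0.0665), and both lining cell calls ended when only the compared groups were fitted (adjusted p = 0.121 for Col11a1 and 0.536 for Col11a2). On day 85, 2 chains passed in osteoblasts, Col11a1 (1.68) and Col11a2 (1.11), with 1.04% of genes called higher, and 7 of 9 arrays could end either call (adjusted p up to 0.243 and 0.194). No filter, quantile normalization and the mean of probe sets ended both as well, the last with Col11a1 at 0.58. Lining cells had 1, Col11a1 at 1.34, with 0.319% called higher, and without 50 mg/kg replicate 3 it was 0.81. Osteocytes had 1, Col3a1 at 1.23, with 3.95% called higher, which 3 of 8 arrays could end (differences of 0.88 to 1.67).

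On day 183 Col3a1 in osteocytes read 5.91, 6.16, 6.36, 6.38 and 6.44 at 50 mg/kg, against 3.64, 3.76, 4.03, 4.29 and 4.82 at 3 mg/kg. The doses did not overlap, and the difference was 2.14 (SE 0.32, adjusted p = 1.52e-06, with 2.18% of genes called higher).

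Differences between cell types in the response were tested on the mean 50 mg/kg response of days 8 to 183, and 4 of 15 passed (6 at an unadjusted p under 0.05). The Col3a1 response was lower in osteoblasts than in osteocytes (-1.15, SE 0.23, adjusted p = 8.56e-05) and lower in lining cells than in osteocytes (-0.98, SE 0.23, adjusted p = 0.000946). The Col5a1 response was higher in osteoblasts than in osteocytes (0.85, SE 0.20, adjusted p = 0.000731), as was that of Col11a2 (0.72, SE 0.21, adjusted p = 0.00893). Among all genes, 12.1% passed between osteoblasts and osteocytes, 9.65% between lining cells and osteocytes and 0.016% between osteoblasts and lining cells. For Col11a1 the 3 differences were 0.07 (SE 0.29), -0.10 (SE 0.30) and -0.18 (SE 0.30), and none passed. Rats that gave several captures may enter more than 1 cell type, which the test leaves out.

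Whether the response changed during dosing was tested as the mean response of both doses on a later day minus that on day 8, and on day 183 minus that on day 85. Sample titles of day 183 carry a different number range from those of days 8 to 85. Day and number range therefore go together in the tests with day 183. None of 20 tests passed limma in any cell type, with 3 in osteoblasts, 5 in lining cells and 4 in osteocytes at an unadjusted p under 0.05. The smallest adjusted p was 0.183, 0.245 and 0.164 in that order. Of all genes, the test called 8.15% (day 29 minus day 8), 0.657% (day 85 minus day 8), 0.561% (day 183 minus day 8) and 0.21% (day 183 minus day 85) in osteoblasts. In the same order the shares were 0.00862, 0.0345, 0.0172 and 0% in lining cells and 0, 1.57, 0.514 and 0.00843% in osteocytes. Col3a1 in osteocytes had a response 1.15 higher on day 183 than on day 8 (SE 0.39, adjusted p = 0.164), and Col11a1 in lining cells one 1.77 lower (-1.77, SE 0.45, adjusted p = 0.245). The Col3a1 difference passed with array weights (1.21, adjusted p = 0.0197) and with only the compared groups (1.15, adjusted p = 0.0217), and that of Col11a1 in lining cells with array weights (-1.84, adjusted p = 0.0161).

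After the 3 mg/kg dosing stopped, 3 of the 5 chains were lower than vehicle in osteocytes on day 197 (Col5a2, Col11a1 and Col11a2) and 1 in osteoblasts (Col5a2). In osteoblasts Col5a2 read 6.03, 6.50, 6.89, 6.90 and 7.08 off antibody, against 7.99, 8.09, 8.35, 8.72 and 8.75 with vehicle, a difference of -1.70 (SE 0.39, adjusted p = 0.0481). In osteocytes it read 7.46, 7.75, 7.95, 8.51 and 8.56, against 8.76, 8.88, 9.68, 9.94 and 10.22, a difference of -1.45 (SE 0.32, adjusted p = 0.00683). In each, all arrays off antibody lay below all vehicle arrays. Genes called lower made up 0.0701% of all genes in osteoblasts and 1.1% in osteocytes. The osteoblast call was fragile: it ended with no filter and on leaving out any of 9 of the 10 arrays (differences of -1.80 to -1.54), while osteocytes lost theirs only without 3 mg/kg replicate 2 (adjusted p = 0.0532) or with the signal range as a covariate (adjusted p = 0.0914).

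Both type XI chains were lower in osteocytes of day 197. Col11a1 in osteocytes read 3.15, 3.61, 4.21, 4.29 and 4.39 off antibody, against 4.73, 4.99, 5.56, 6.28 and 6.56 with vehicle, without overlap, and fell by 1.70 on the log2 scale (SE 0.39, adjusted p = 0.011). Col11a2 there read 4.82, 5.00, 5.39, 5.59 and 6.07, against 5.76, 5.86, 7.0, 7.11 and 7.34, with overlap, and fell by 1.24 (SE 0.29, adjusted p = 0.0114). Both calls ended under quantile normalization (adjusted p = 0.0534 and 0.0955), and with the mean of its probe sets Col11a1 was at -0.49 (adjusted p = 0.141). Both also ended without vehicle replicate 1 or 3, and that of Col11a1 without 3 mg/kg replicate 2 (adjusted p up to 0.0723 and 0.0659). In osteoblasts Col11a1 read 2.15, 2.41, 2.57, 3.15 and 3.18 off antibody, against 4.23, 4.23, 4.29, 4.80 and 5.10 with vehicle, wholly below it, yet the difference of -1.84 missed the threshold (adjusted p = 0.0621). It passed with array weights (adjusted p = 0.00347), the signal range as a covariate (0.0486) and only the compared groups (0.000445).

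Col11a2 in those osteoblasts read 4.52, 4.79, 4.84, 4.84 and 5.12 off antibody, against 5.79, 5.89, 6.08, 6.14 and 6.27 with vehicle, and Col5a1 lay wholly below vehicle too. Their differences of -1.21 (adjusted p = 0.0659) and -0.96 (adjusted p = 0.312) passed with array weights (adjusted p = 0.00966 and 0.0302) and with only the compared groups (0.000445 and 0.00377). Lining cells passed for none of the chains after dosing, 0 of 20 over the 4 later days in limma with 5 at an unadjusted p under 0.05, and their Col5a2 was at -1.16 on day 197 (adjusted p = 0.432). On that day their Col5a2 arrays lay wholly below vehicle (5.39 to 5.93, against 6.17 to 7.09). So did those of Col5a1 (5.16 to 5.75, against 6.06 to 6.76), while the other chains overlapped. Of all genes in lining cells, 0.0603% were called on day 197, 1.08% on day 267, 1.45% on day 237 and 0.405% on day 309. Col3a1 was near vehicle on day 197, at -0.01 in osteoblasts and -0.07 in osteocytes. The osteoblast marker sum was lower on day 197 as well, at 633 to 3287 off antibody, against 3990 to 7910 with vehicle in osteoblasts, and 442 to 1052, against 1283 to 3903, in lining cells. In osteocytes it was 2973 to 7104, against 6088 to 15598, with Bglap at -1.18. Its part was not tested.

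By day 267, Col5a2 in osteocytes off 3 mg/kg was above vehicle, reading 9.28, 9.34, 9.55, 10.52 and 10.63, against 8.37, 8.62, 8.81, 8.85 and 9.16. The groups did not overlap and the difference was 1.10 (SE 0.32, adjusted p = 0.032, with 3.46% of genes called higher), a call that ended on leaving out any of 5 of the 10 arrays (differences of 0.91 to 1.25), under quantile normalization (adjusted p = 0.157) and with the signal range as a covariate (adjusted p = 0.146). None of the 5 chains passed limma in osteoblasts on that day, when 0% of all genes were called.

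After 50 mg/kg, Col3a1 remained high in osteocytes. It read 5.57, 5.64, 5.70, 6.50 and 6.90 off antibody on day 237, against 3.92, 4.13, 4.2, 4.57 and 4.66 with vehicle, and 4.41, 4.84, 5.09, 5.92 and 6.30 on day 309, against 3.51, 3.68, 3.76, 3.83 and 4.30. On both days every array off antibody was above every vehicle array. The differences were 1.77 on day 237 (SE 0.32, 3.40-fold, adjusted p = 1.93e-05) and 1.50 on day 309 (SE 0.32, 2.82-fold, adjusted p = 0.000373), with 7.04 and 5.36% of genes called higher. Neither call ended on leaving out an array. The osteocyte markers moved alongside, at a sum of 12087 to 16168 off antibody on day 237, against 1022 to 6087, and at 2797 to 9410 on day 309, against 940 to 4554, and their part was not tested. Endothelial markers were called higher in osteocytes of day 237, 4 of 5, with a sum of 95.5 to 202 off antibody, against 56.9 to 120, while on day 309 their sum overlapped (52.3 to 101, against 66.3 to 82.8). Skeletal muscle markers were also called higher in osteocytes of day 309, 5 of 6, with a sum of 34.1 to 353 off antibody, against 31.5 to 35.4. Erythroid markers were called lower, 5 of 7 on day 237 and 3 of 7 on day 309, when 6.16 and 11% of all genes were. Their sum was 6665 to 9291 off antibody on day 237, against 8762 to 16821, and 6936 to 12633 on day 309, against 12793 to 15541. The part of these markers in the Col3a1 differences was not tested either.

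Col5a1 went in opposite directions on these days in osteocytes. It read 7.08, 7.34, 7.61, 7.89 and 8.14 off antibody on day 237, against 8.20, 8.23, 8.43, 8.58 and 8.83 with vehicle, a difference of -0.85 (SE 0.28, adjusted p = 0.0314, with 6.16% of genes called lower). On day 309 it read 8.46, 8.98, 8.99, 9.17 and 9.27, against 7.28, 7.34, 7.77, 8.24 and 8.56, a difference of 1.13 (SE 0.28, adjusted p = 0.00236). The day 237 groups did not overlap, and those of day 309 overlapped by 1 array on each side. The first call ended under quantile normalization (adjusted p = 0.0652), with array weights (adjusted p = 0.0828) and on leaving out any of 5 of the 10 arrays (differences of -0.98 to -0.71). Relative to day 183, the Col5a1 response of day 309 was higher by 1.40 (SE 0.40, adjusted p = 0.0143), a call that ended without 50 mg/kg replicate 4 of day 183 (adjusted p = 0.0576).

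Col5a2 showed the same turn in osteoblasts. It read 6.40, 7.0, 7.01 and 7.86 off antibody on day 237, against 7.96, 8.07, 8.34, 8.59 and 8.62 with vehicle, a difference of -1.25 (SE 0.42, adjusted p = 0.0388, with 7.7% of genes called lower). On day 309 it read 8.09, 8.12, 8.33, 8.38 and 9.54, against 6.41, 6.79, 7.02, 7.48 and 7.72, a difference of 1.41 (SE 0.39, 2.66-fold, adjusted p = 0.0139, with 8.63% of genes called higher). The groups did not overlap on either day. Quantile normalization ended both calls (adjusted p = 0.085 and 0.0802), as did the signal range as a covariate (adjusted p = 0.207 and 0.46). Leaving out 1 array ended the first for 7 of 9 arrays (differences of -1.51 to -1.03) and the second for vehicle replicate 3 or 4 and 50 mg/kg replicate 1 (1.15 to 1.57). The day 237 response was below that of day 183 by 1.77 (-1.77, SE 0.57, adjusted p = 0.0315), which 6 of 19 arrays could end (differences of -2.04 to -1.52). With the signal range as a covariate that difference was -1.04 (adjusted p = 0.449), and under quantile normalization -1.40 (adjusted p = 0.088). Over all 4 later days, 3 of 20 combinations passed in osteoblasts (8 at an unadjusted p under 0.05) and 8 of 20 in osteocytes (14).

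Of the responses after dosing set against that of day 183, the 2 just given, Col5a1 in osteocytes and Col5a2 in osteoblasts, were the ones to pass among 20 in each cell type. Lining cells had 0 of 20 in limma and 2 at an unadjusted p under 0.05. The shares of all genes called were 0.0438% (3 mg/kg, day 197), 0.0175% (3 mg/kg, day 267), 11.5% (50 mg/kg, day 237) and 0.754% (50 mg/kg, day 309) in osteoblasts. In the same order they were 0.00862, 0, 1.09 and 2.15% in lining cells and 0.135, 0.0337, 0.0675 and 10.4% in osteocytes. On day 197 in osteocytes Col5a2 was at -1.76 (adjusted p = 0.0724), Col11a1 at -2.06 (adjusted p = 0.0901) and Col11a2 at -1.55 (adjusted p = 0.0853) relative to day 183. Sample titles of day 183 carry a number range of their own, apart from day 197 and the other later days. Day and range therefore go together in all these tests, the 2 that passed included.

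Over all arrays of the study, with each array taken as its deviation from the mean of its cell type and day, the 4 type V and XI chains varied together. Pairwise r lay between 0.68 and 0.82, and within cell types between 0.72 and 0.91 in osteoblasts (n = 97), 0.61 and 0.82 in lining cells (n = 100) and 0.63 and 0.77 in osteocytes (n = 97). Col3a1 correlated with them at 0.07 to 0.22 over all arrays, and with Col11a1 in osteocytes at 0.43. These arrays share treatments and signal range, so the correlations are descriptions of the set and carry no test.

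**Figure D4:**
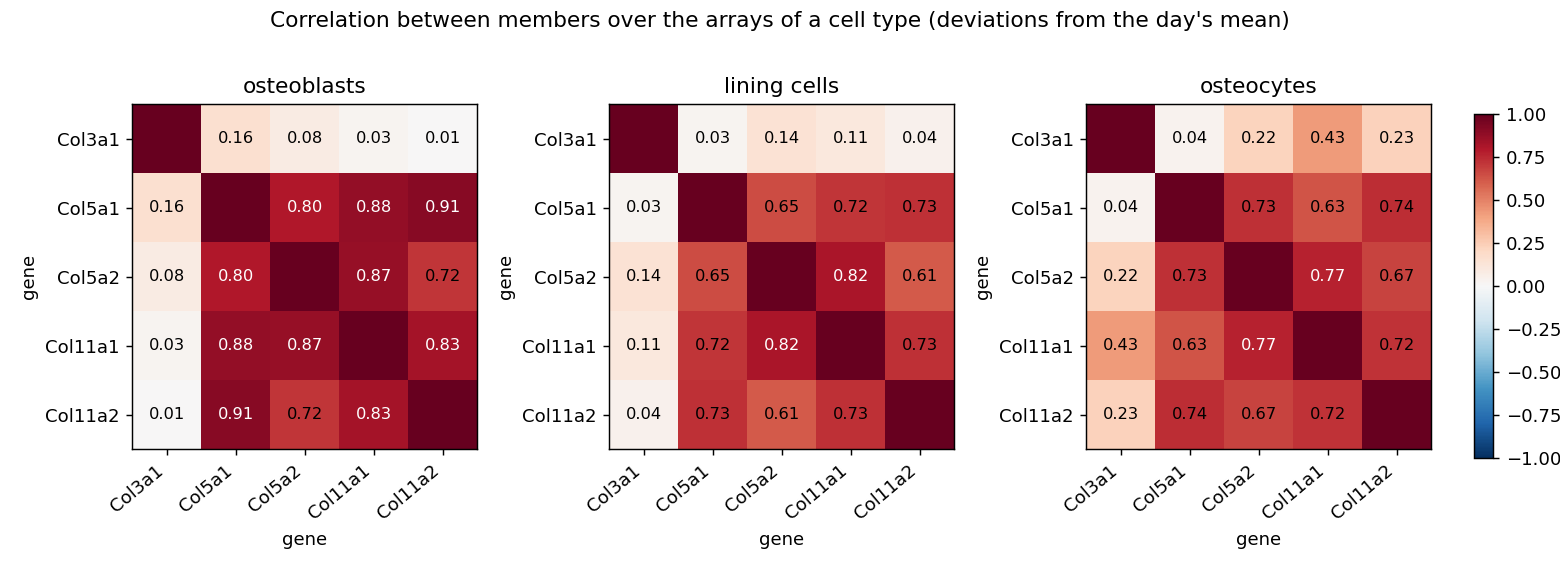
Pearson correlation between the 5 collagen chains in each cell type, over arrays as deviations from the mean of their day. The block of type V and XI chains is strongly correlated in each panel, and the Col3a1 row is paler, with its deepest cell in osteocytes against Col11a1.

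Of 11126 genes, those most like each chain by the same measure were mostly bone matrix genes for types V and XI. Col5a1 was nearest to Sparc (r = 0.82), which encodes osteonectin, and to Cthrc1 (0.82), Col11a2 (0.81), Cgref1 (0.80) and Col1a1 (0.80). Col5a2 was nearest to Cpe (0.84), Col1a2 (0.83) and Col11a1 (0.82). Col11a1 was nearest to Col5a2 (0.82), Col11a2 (0.77), Col5a1 (0.75), Sparc (0.75) and Col1a2 (0.75), and Col11a2 to Col5a1 (0.81) and Col11a1 (0.77). The nearest to Col3a1 were Sparcl1 (0.71), the type VI collagen chains Col6a1 and Col6a3 (0.57 each) and P4ha1 (0.56), a catalytic chain of prolyl 4-hydroxylase.

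Whether Col11a1 moved apart from the other collagens within an array was asked by subtracting Col5a1, Col3a1 or Col1a1 from it and comparing both doses with vehicle on each dosing day. Of 36 exact two-sided permutation tests none passed after adjustment (smallest adjusted p = 0.0503), and 14 had an unadjusted p under 0.05, of which 6 were against Col5a1, 5 against Col3a1 and 3 against Col1a1. In lining cells of day 8 Col11a1 minus Col5a1 was -1.18 ± 0.46 in treated arrays (SD, n = 10) and -2.23 ± 0.54 with vehicle (SD, n = 5), a change of 1.05 (exact permutation p = 0.00266). In osteoblasts of day 8 it was -1.16 ± 0.33 in treated arrays (SD, n = 9) and -1.75 ± 0.22 with vehicle (SD, n = 5), a change of 0.58 (exact permutation p = 0.00599). Against Col1a1 in osteocytes of day 8 it was -4.63 ± 0.42 and -5.36 ± 0.18, a change of 0.73 (exact permutation p = 0.004, n = 10 and 5). In the other direction, Col11a1 minus Col3a1 in lining cells of day 183 was 0.13 ± 0.41 in treated arrays and 0.87 ± 0.44 with vehicle, a change of -0.74 (exact permutation p = 0.00699, n = 10 and 5). With the mean of each gene's probe sets, the day 8 changes just given were 0.0083 in lining cells, -0.33 in osteoblasts and -0.25 in osteocytes. That of day 183 was -0.73. This mean takes in the low Col11a1 probe sets and so dilutes the changes of that gene. The smallest p that 10 arrays against 5 allow is 0.000333. These are differences between probe sets, and their level has no meaning of its own, only its change.

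The genes that make, trim and surround these fibrils were listed by role, and over both doses few of them passed at a time. In osteoblasts of day 85, both type I chains were higher among 5 other fibrillar collagen chains (Col1a1 1.89, Col1a2 1.17). So were 3 of 20 collagen folding and modifying genes, Sparc (1.44), the lysyl hydroxylase Plod2 (0.76) and the collagen chaperone Serpinh1 (0.72), with a list median of 0.20 against 0.03 for all genes. Of 5 genes for processing and cross-linking, 2 were higher, the procollagen proteinase enhancer Pcolce (0.93) and the cross-linking enzyme Lox (0.76). Of 17 genes of fibril-associated matrix, 3 were higher, namely Dcn (1.11), Col6a1 (0.98) and Omd (0.95). Over both doses on that day, 1.26% of all genes were called higher.

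Earlier days showed fewer. In osteoblasts of day 8 Lox (1.32) and Omd (1.29) were higher while Tnc (-0.98), the collagenase gene Mmp13 (-1.09) and the collagen-binding integrin chain Itga1 (-0.83) were lower. Of all 11412 genes there, 288 were called higher and 127 lower. On day 29 Col1a1 (1.14), Sparc (1.31) and Pcolce (0.70) were higher, and Postn (-1.39), Tnc (-1.0) and Col12a1 (-0.62) were lower. Lower calls were common on that day, at 1411 of 11412 genes, against 302 higher. Lining cells had Sparc higher on day 29 (1.44), and osteocytes had Lox (1.95) and Omd (1.58) higher on day 8.

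In osteocytes the days on which Col3a1 was high had the prolyl 4-hydroxylase genes high. P4ha1 and P4ha2 were at 1.24 and 1.07 on day 85 and at 1.23 and 0.88 on day 183 over both doses, within 5 and 3 of 20 folding and modifying genes called higher, where 4.43 and 1.75% of all genes were. Postn (1.32 and 1.45) and Col6a1 (1.15 and 1.17) were higher on these days too. After 50 mg/kg, expression differences stood at 2.34 (P4ha1), 2.12 (P4ha2) and 1.46 (Col6a1) on day 237, when Col1a1 (-1.87), Col1a2 (-1.29) and Sparc (-1.07) were lower. On day 309, 12 of the 20 folding and modifying genes were higher, with a list median of 0.61 against -0.01 for all genes, and 8 of 18 fibril-associated genes, where 5.36% of all genes were called higher. Among the fibril-associated ones were Col6a1 (1.80) and Col6a3 (1.44).

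On day 197, after 3 mg/kg, the type I chains were lower in each cell type, beside the type V and XI values given above. Col1a1 was at -2.90 in osteoblasts (adjusted p = 2.99e-06), -2.57 in lining cells (adjusted p = 0.00168) and -1.80 in osteocytes (adjusted p = 0.00171). Col1a2 was at -2.48, -2.33 and -1.37 in that order.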

How the data were processed

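The arrays were Affymetrix Rat 230_2. The deposited values are RMA intensities on a linear scale (2.94 to 28282), although log2 values had been anticipated, so log2 was taken first. Per the submitters' processing notes, RMA, affy 1.38.1, R 3.0.1 and Affymetrix Expression Console were used, with roles not given in the sources used here. Per the labels' protocols, 1.5 ng of RNA was amplified for each array.

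Of 31042 probe sets, 20826 had 1 gene in the platform annotation, 436 several and 9780 none, and 20758 symbols were taken from the gene table by ID. No column of per-sample values was left unused (0). Genes had to exceed the array median on at least 5 arrays of the fit. Each cell type was fitted in limma 3.58.1 (R 4.3.3; data.table, 1.17.8) with 1 mean per treatment and day, and p-values were adjusted by Benjamini-Hochberg over all genes tested in it: 11412 in osteoblasts, 11600 in lining cells, 11859 in osteocytes. Cell types were compared after quantile normalization of the vehicle arrays (11854 genes), with day as a covariate, and responses between cell types in 1 fit of all arrays (12507 genes). The script was tested on simulated data.

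The members and lists were chosen with earlier results of these data known. Named were all 5 members in each comparison, the 5 genes most correlated with each, of which part is printed, and at most 3 called genes of a list in a comparison. Alternatives were quantile normalization, no filter, the mean of a gene's probe sets, array weights, signal range as a covariate, only the groups compared, and each array left out in turn. Leaving out the 3 arrays whose signal range stood apart was chosen after seeing the data. The labels do not name the rat, arrays of different cell types may share one, and p-values measure only the spread between these samples. The number of arrays limits the precision.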

Additional observations from a re-analysis of the deposited data

Results flagged for a closer look

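The mean 50 mg/kg response of days 8 to 183 differed between cell types, by limma's test of the difference, for 3 chains. It differed between osteoblasts and osteocytes by -1.15 for Col3a1, 0.85 for Col5a1 and 0.72 for Col11a2, and between lining cells and osteocytes by -0.98 for Col3a1. The response after dosing differed from that of day 183 for Col5a1 in osteocytes on day 309 (1.40) and for Col5a2 in osteoblasts on day 237 (-1.77, but -1.04 and no longer past the threshold with the signal range as a covariate). In both, day and sample number range go together.

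Single arrays stood apart from their group by Dixon's test in 23 of 295 combinations of chain and group, 13 low and 10 high, which is 7.8% where chance alone gives about 1 in 20. The 5 combinations of 3 arrays were not tested. Values are log2 intensities. In osteoblasts, Col5a2 had an array at 9.81 (3 mg/kg, day 29) and one at 9.54 (off 50 mg/kg, day 309), and Col11a2 had one at 8.21 (3 mg/kg, day 29) and one at 7.58 (50 mg/kg, day 8). Vehicle osteoblasts had arrays of Col5a1 at 7.39 (day 183) and 7.21 (day 309) and of Col11a2 at 5.10 (day 183) and 5.25 (day 309). Lining cells had Col11a2 at 3.81 (50 mg/kg, day 29), Col3a1 at 3.84 (off 3 mg/kg, day 267), and Col5a2 at 5.93 (off 3 mg/kg, day 197) and 7.15 (3 mg/kg, day 85). Osteocytes at 3 mg/kg had Col3a1 at 5.09 (day 8) and 5.32 (day 29), Col11a1 at 5.94 (day 8) and Col5a2 at 8.58 (day 8). Osteocytes at 50 mg/kg had Col5a1 at 9.11 (day 29) and 7.40 (day 183), Col11a2 at 8.28 (day 8) and Col5a2 at 8.44 (off antibody, day 237). Vehicle osteocytes had Col11a1 at 5.45 (day 29), Col5a1 at 9.24 (day 29) and Col11a2 at 4.72 (day 267).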

How the results depend on the processing

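No paired analysis was possible because the labels give neither replicate numbers nor the rat, and the replicate numbers printed here follow accession order. Of the recomputed counts, 173 were within 1.5 times the reported count and 31 were not. Single-gene values kept direction and side of the threshold in 790 cases, lost the call in 96 and turned sign in 1, Col3a1 between osteoblasts and osteocytes in vehicle, at 0.14 on the deposited values. These cases cover only results called as reported, and of the arrays left out only those giving the lowest and highest difference. Calls newly made are not among them: array weights made 30 and ended 11, and fits of only the groups compared made 26 and ended 13. In osteoblasts, the 3 calls after dosing became 1 under quantile normalization and 6 with array weights or only the groups compared, and the 1 call against day 183 became 0 under quantile normalization or with the signal range, and 3 with array weights or only those groups. In lining cells, fits of only the groups compared gave 1 call over both doses (3), 1 between doses (7), 1 after dosing (0) and 2 in vehicle over days (0), array weights gave 2 after dosing (0) and 1 on a later dosing day (0), and leaving out the arrays of outlying signal range, chosen after seeing the data, gave 1 in vehicle (0). In osteocytes, the 8 calls after dosing became 4 under quantile normalization and 5 with the signal range, the 3 in vehicle became 0 with the signal range, the 1 against day 183 became 4 with array weights or only those groups, and later dosing days gave 2 with array weights and 1 with only those groups (0). Within-array tests past the threshold numbered 5 with probe set means and 8 under quantile normalization (0). With probe set means the changes that passed were all below 0. For Col11a1 that mean takes in the low probe sets, which changed by -0.23 to 0.26 over both doses, so its changes are diluted there. These tests therefore cannot tell whether Col11a1 moved less than the other gene. Under quantile normalization they were above 0, except Col11a1 minus Col3a1 in lining cells of day 183 (-0.79). Leaving out 1 array gave 1 to 5 calls after dosing and 0 to 1 against day 183 in osteoblasts, 0 to 1 on later dosing days and 0 to 1 in vehicle in lining cells, 0 to 2 against day 183 in osteocytes, and 0 to 9 within arrays. The causes were not tested. Counts of calls for the single doses against vehicle on the dosing days, 3 and 50 mg/kg counted together, were steadier on leaving out 1 array. They stayed at 9 to 10, 5 to 7 and 8 to 10 of 40 in osteoblasts, lining cells and osteocytes.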

Other observations

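Genes of the lists above also differed in comparisons after dosing for which no list results were given. In osteocytes off 3 mg/kg on day 267, limma called 4 of 18 fibril-associated genes higher, among them the small leucine-rich proteoglycan gene Lum (1.37, SE 0.26), Tnc (1.17, SE 0.30) and Col6a3 (1.13, SE 0.28). Of 12 genes of collagen receptors and degradation, 3 were higher there, the collagenase gene Mmp13 (1.09, SE 0.25), the collagen receptor gene Ddr2 (0.78, SE 0.21) and Itgb1 (0.72, SE 0.19). Of all genes, 3.46% were called higher in that comparison. In osteoblasts off 50 mg/kg on day 309 Mmp13 was higher as well (1.13, SE 0.26), beside Lum (1.04, SE 0.23), Plod2 (0.86, SE 0.24) and the osteoclast protease gene Ctsk (1.03, SE 0.29). The osteoclast marker Acp5 was higher in those osteoblasts too (1.23, SE 0.28), and its part in the other values was not tested.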
